A study of Drosophila melanogaster with 2 samples.

Results

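The X chromosome held 425 of the 2546 peaks of GFP-tagged CG32264 that the authors' irreproducible discovery rate (IDR) step kept, which is 16.7% (95% interval 15.3 to 18.2%, exact Clopper-Pearson). A peak belonged to the X set when its chromosome in the optimal list was X, with no use of its signal or its place. Chromatin immunoprecipitation followed by sequencing was run on wandering larvae of the third instar, taken whole with males and females pooled, of a single transgenic line in which CG32264 carries a C-terminal GFP tag and was pulled down through that tag. The labels give 1 group with 2 biological replicates, numbered 1 and 3, and no other genotype, treatment or time, so the X peaks were compared with the peaks of arms 2L, 3L and 3R. The age is labelled unknown, the control library was not analysed here, and a whole larva mixes every tissue and both sexes, so a peak cannot be assigned to a cell type or a sex. All coordinates are of build dm6, counted from 1.

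CG32264 encodes a member of the phosphatase and actin regulator (Phactr) family, whose vertebrate members bind monomeric actin and protein phosphatase 1. In Drosophila the X chromosome is present as a single copy in males and as a pair in females, and the male-specific lethal complex, which contains the roX RNAs, raises transcription of the male X. Promoters lie at gene starts, and many enhancers lie in introns, so the place of a summit, the highest point of a peak, is described first by distance to the nearest annotated transcription start and then by the kind of sequence it falls in.

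The sequence at the summits is shown for peaks that stood high in both replicates and for peaks that the replicates ranked far apart, so that both kinds can be read side by side. Each line gives the summit base with 50 bases to either side, from the RefSeq sequence of Release 6 (dm6), plus strand, 5′ to 3′, with matches to any of 11 motifs in capitals. The first 5 were in the top 100 of both replicates.
ph-p, intron, chrX:2137288-2137388: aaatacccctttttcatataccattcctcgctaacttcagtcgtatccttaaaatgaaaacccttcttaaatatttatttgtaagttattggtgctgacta
CG32772, intron, chrX:4910321-4910421: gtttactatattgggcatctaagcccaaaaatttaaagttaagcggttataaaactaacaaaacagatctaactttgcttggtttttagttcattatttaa
Gapdh2, upstream, chrX:15867911-15868011: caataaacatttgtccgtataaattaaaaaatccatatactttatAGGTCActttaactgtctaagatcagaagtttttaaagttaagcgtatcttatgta
norpA, intron, chrX:4324953-4325053: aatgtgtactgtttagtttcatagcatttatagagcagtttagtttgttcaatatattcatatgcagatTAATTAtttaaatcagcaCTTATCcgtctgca
Raf, intron, chrX:2300654-2300754: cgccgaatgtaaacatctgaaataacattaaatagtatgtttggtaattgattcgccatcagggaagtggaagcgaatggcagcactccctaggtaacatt
The capitals at Gapdh2 mark a nuclear receptor half-site (AGGTCA), and those at norpA a homeodomain core (TAATTA) and a GATA site read on the minus strand (GATAAG). The windows of ph-p, CG32772 and Raf held none of the 11 motifs. The next 4 ranked far higher in replicate 3 than in replicate 1, and the last 2 ranked far higher in replicate 1.
sd, intron, chrX:15811734-15811834: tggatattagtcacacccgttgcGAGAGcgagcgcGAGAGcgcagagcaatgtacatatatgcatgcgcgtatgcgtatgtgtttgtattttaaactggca
Tlk, intron, chrX:3781110-3781210: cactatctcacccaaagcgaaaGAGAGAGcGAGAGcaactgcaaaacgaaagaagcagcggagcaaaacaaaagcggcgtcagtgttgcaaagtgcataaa
Mur2B, intron, chrX:1617122-1617222: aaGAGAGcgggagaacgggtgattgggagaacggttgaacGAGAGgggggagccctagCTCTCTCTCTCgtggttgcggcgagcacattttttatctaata
CG43658, intergenic, chrX:17561368-17561468: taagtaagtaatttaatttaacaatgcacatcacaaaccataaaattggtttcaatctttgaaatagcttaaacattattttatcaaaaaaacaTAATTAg
lncRNA:CR44517, exon, chrX:9141417-9141517: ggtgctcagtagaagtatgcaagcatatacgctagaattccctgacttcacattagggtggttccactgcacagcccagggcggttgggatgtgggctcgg
IP3K2, intron, chrX:13323249-13323349: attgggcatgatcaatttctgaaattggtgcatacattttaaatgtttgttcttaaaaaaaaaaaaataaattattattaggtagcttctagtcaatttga
The capitals in sd, Tlk and Mur2B mark the GAGA element (GAGAG) or its repeat (GAGAGAGA) on either strand. Those in CG43658, which is rich in A and T, mark a homeodomain core, and lncRNA:CR44517 and IP3K2 held no match.

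The strongest peak of the whole optimal set lay on X. Peak signal is the authors' own value, and its scale differs between lists. The peak at Ugalt (FBgn0024994, chrX:2703719-2704051), which encodes a UDP-galactose transporter, had a signal of 956 in the optimal set, and its summit was 29 bp upstream of the start. It ranked 2 in replicate 1 as in replicate 3, with signals of 629 and 334.5. Across the 425 X peaks the signal ran from 61.3 to 956 with a median of 95.7, against medians of 91.8 on 2L, 89.1 on 3L and 88.3 on 3R. X held 10 of the top 50 peaks (20%) and 18 of the top 100, beside 16.7% of all peaks. The counts were 9 and 16 on 2L, 13 and 24 on 3L, and 8 and 24 on 3R. Of the X peaks, 117 (27.5%) were in the strongest 25% of all peaks, against 412 of 1655 (24.9%) on 2L, 3L and 3R, which did not pass the test (odds ratio 1.15, adjusted p = 0.346, Fisher's exact test, two-sided, adjusted over 6 shares). This test and those below count peaks, not larvae, so their p-values say nothing of the spread between animals.

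Of the 20 strongest X peaks 13 were in introns and 13 (not all the same ones) lay farther than 500 bp from the nearest start. The peak in ph-p (FBgn0004861, chrX:2137204-2137510), a Polycomb group gene, had an optimal signal of 706 and rank 8, and its signals were 458 in replicate 1 and 279 in replicate 3. The peak in the intron of CG32772 (FBgn0052772, chrX:4910210-4910532) had an optimal signal of 689 and rank 10, with 438 in replicate 1 and 256 in replicate 3. The long non-coding RNA gene lncRNA:CR44619 (FBgn0265830) had a peak in an exon (chrX:12752199-12752526) with rank 17, and a second peak near its start with rank 72. Gapdh2 (FBgn0001092), a glyceraldehyde-3-phosphate dehydrogenase of glycolysis, had a summit 184 bp upstream of its start (chrX:15867810-15868137) with a signal of 488 and rank 30. Gapdh2 stood higher in replicate 3, at rank 10, than in replicate 1, at rank 72. An intron of Zw, which encodes glucose-6-phosphate dehydrogenase, held the peak of rank 31, whose nearest start was that of the antisense RNA gene asRNA:CR44512.

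The other strong X peaks had like ranks in both replicates. Introns of LPCAT, a lysophosphatidylcholine acyltransferase, of norpA, the phospholipase C of phototransduction, and of Tlk, the Tousled-like kinase, held the peaks of rank 37, 42 and 43. The peak in Raf (FBgn0003079), the kinase that acts downstream of Ras, was 5238 bp from the nearest start and had rank 47. Ptpmeg2, a protein tyrosine phosphatase, had rank 57 with a summit 178 bp upstream of a start, and MFS10 had rank 54. An intron of Hr4, which encodes a nuclear receptor of the ecdysone response, held the peak of rank 67, and a 5′ UTR of baz, the Drosophila Par-3 of cell polarity, held that of rank 78. The remaining named peaks of the 20 strongest were nearest to CG8034, CG3726, bves, prage and CG17896, with ranks 76, 80, 95, 105 and 112. All 20 were among the top 2546 of each replicate.

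**Figure D1:**
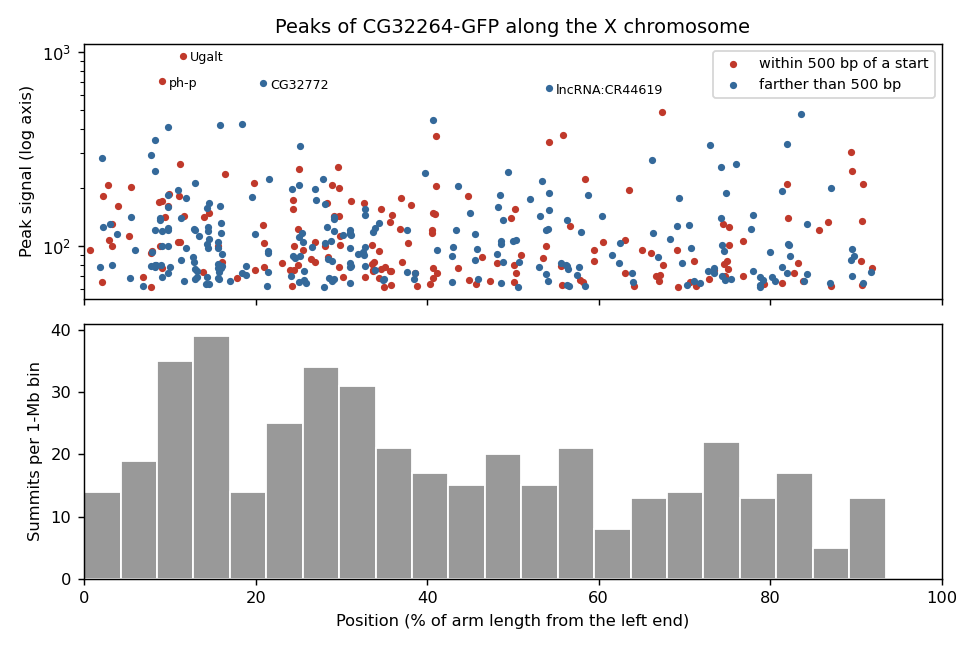
Each point in the upper panel is 1 of the 425 X peaks, by its position along the arm (percent of arm length) and its signal in the optimal set (log axis), coloured by whether the summit lay within 500 bp of a start. The lower panel counts summits per 1-Mb bin; the bin from 3 to 4 Mb holds the most, 39, and the last 2 bins hold 0.

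Summits on X fell in introns more often, and between genes less often, than those of the other arms. Of the 425 X summits, 284 (66.8%, 95% interval 62.1 to 71.3%) were intronic, against 821 of 1655 (49.6%) on 2L, 3L and 3R (odds ratio 2.05, adjusted p = 6.35e-10, Fisher's exact test). Intergenic summits made up 85 (20%) on X and 630 (38.1%) on the other 3 arms (odds ratio 0.407, adjusted p = 3.45e-12, Fisher's exact test). Both tests treat summits as independent, although some X genes held many, such as kirre with 13 and Mnt, Raf and Tlk with 8 each. They also take no account of the share of bases in each class. Introns took 46.7% of the bases of X and intergenic sequence 25.4%, against 42.3% and 31.4% on the 3 arms together. Per Mb of intron there were 25.8 summits on X and 23.2 on the 3 arms, and per Mb of intergenic sequence 14.2 and 24.0. The intronic density of 2L, 26.8 per Mb, was above that of X, while the intergenic density of X was below the 22.8 to 26.1 of the single arms.

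Arm 3R is the one whose base composition is nearest to that of X, with 46.2% intron and 27.2% intergenic sequence. Its intronic share of summits was 51.7% and its intergenic share 37.4%. Among summits farther than 500 bp from a start, 216 of 253 (85.4%) on X were intronic, against 593 of 873 (67.9%) on the 3 arms, and 24 (9.49%) were intergenic, against 243 (27.8%). The remaining X summits were 40 in 5′ UTRs, 7 in 3′ UTRs, 8 in exons of non-coding genes and 1 in a coding exon. That one lay in Trxr1 (FBgn0020653), a thioredoxin reductase gene (chrX:8244300-8244675), with rank 2522 in the optimal set and ranks 3092 and 2484 in replicates 1 and 3. Coding exons took 16.7% of the bases of X.

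**Figure D2:**
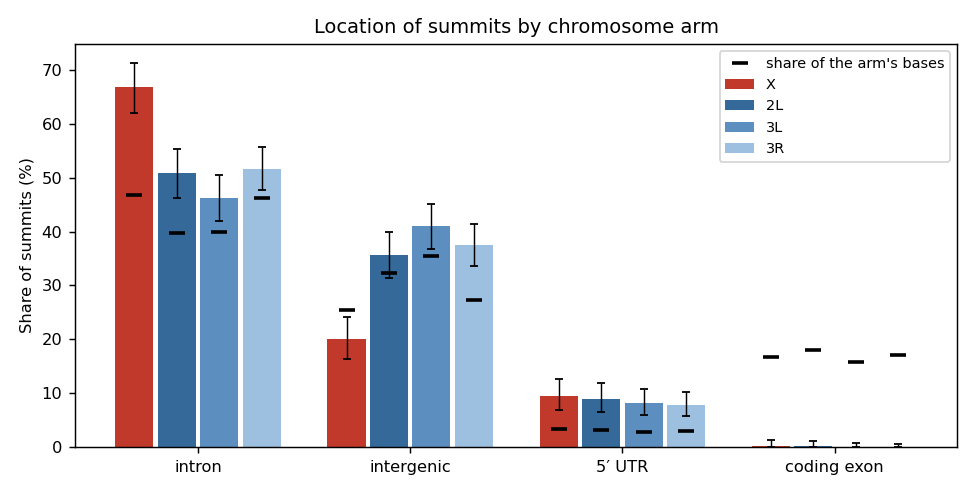
Bars give the share of summits (percent) in introns, intergenic sequence, 5′ UTRs and coding exons on X, 2L, 3L and 3R, error bars are exact 95% intervals, and black dashes are the share of each arm's bases. The X bar is the highest for introns (66.8%) and the lowest for intergenic sequence (20%).

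Fewer X summits lay at gene starts, and the odds ratio was lowest for the narrowest window tested. Within 500 bp of a start lay 172 of the 425 X summits (40.5%), against 782 of 1655 (47.3%) on 2L, 3L and 3R and 47.1% over all arms (odds ratio between X and the 3 arms 0.759, adjusted p = 0.0280, Fisher's exact test). With the peaks of replicate 3 alone in place of the optimal set the odds ratio was 0.863 with adjusted p = 0.283, and a 1000 bp window gave 0.795 with adjusted p = 0.0725 (both Fisher's exact test). With a window of 100 bp, chosen after the distances had been seen, the counts were 42 (9.88%) on X and 335 (20.2%) on the 3 arms, with an odds ratio of 0.432. In percentage points the gap was wider at 250 bp, with 24.9% on X and 38.4% on the 3 arms. The share within 100 bp was 20.7% on 2L, 18.6% on 3L and 21.3% on 3R. In the top 2546 peaks of replicate 1 it was 9.93% on X and 21.5% on the 3 arms, and in those of replicate 3 it was 13.0% and 21.1%. Bases within 500 bp of a start made up 12.6% of X and 13.6% of the 3 arms.

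Among summits within 500 bp, the median distance to the start was 200 bp on X, 115 bp on 2L, 118 bp on 3L and 119 bp on 3R. The summit lay upstream of the nearest start at 129 of the 172 X sites (75%) and at 626 of 782 (80.1%) on the 3 arms. The strongest X peaks within 100 bp, after Ugalt, were at pod1 (rank 232, 79 bp), Rtel1, a helicase of telomeres (rank 356, 79 bp), TRAM (rank 413, 83 bp), CG17982 (rank 442, 100 bp) and Vinc, the Drosophila vinculin (rank 541, 57 bp). These 5 were named after their values had been seen.

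**Figure D3:**
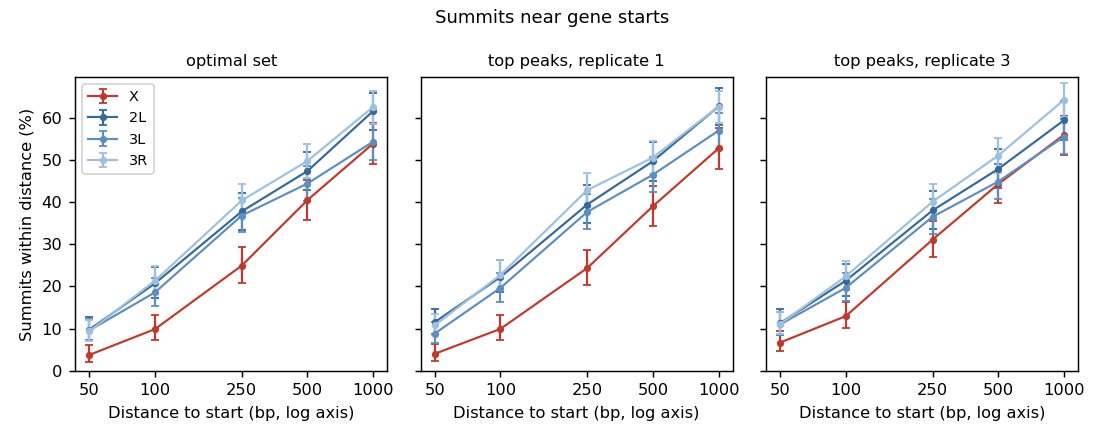
Lines give, for X, 2L, 3L and 3R, the percent of summits within 50, 100, 250, 500 and 1000 bp (log axis) of the nearest start in the optimal set and in the top peaks of each replicate, with exact 95% intervals. The X line lies lowest at 100 bp in each panel, at 9.88%, 9.93% and 13.0%.

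Far from starts no difference passed the test. Summits at least 10000 bp from any start numbered 28 on X (6.59%) and 98 on the 3 arms (5.92%), with an odds ratio of 1.12 and adjusted p = 0.648 by Fisher's exact test. Of the farthest, one lay in an intron of kirre, which acts in myoblast fusion, 29775 bp from a start (chrX:3018638-3019013), with rank 1459 in replicate 1 and 391 in replicate 3. Another, also in an intron of kirre, was 27658 bp away, with ranks 2489 and 982. Both stood higher in replicate 3.

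The X peaks were unevenly spread along the chromosome, as were those of the other arms. X had 18.1 peaks per Mb, against 20.9 on 2L, 19.7 on 3L and 19.0 on 3R, and 19.4 per 100 protein-coding genes, against 18.5, 20.2 and 17.8. The full 1-Mb bins held 18.5 ± 9.47 summits (mean and SD) on X, 21.4 ± 10.3 on 2L, 19.8 ± 13.5 on 3L and 19.0 ± 10.5 on 3R, with at most 45, 53 and 36 in a bin of the latter arms. On X the median was 17, and the fullest, from 3 to 4 Mb, held 39 with 55 protein-coding genes, and 6 of these summits lay within 500 bp of a start. The neighbouring bin from 2 to 3 Mb held 35 summits with 126 protein-coding genes, and 14 of these summits were within 500 bp. The bin from 6 to 7 Mb held 34. From 22 Mb to the right end, the side of the centromere, there were 0 summits although 59 protein-coding genes are annotated there. Of the full bins 1 was empty on X, 1 on 2L, 5 on 3L and 4 on 3R. The widest gap between summits, 543597 bp, ran from 20510748 to 21054345, where a peak at bves ended it.

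In the fullest bin, the strongest peak was that of Tlk (rank 43), followed by a peak in an intron of yin, nearest to CG2930 (rank 173), and a peak in kirre, nearest to CG4116 (rank 220). The next were nearest to CG14269 (rank 376) and in Tlk again (rank 408). The densest 100 kb of X, from 3677824 to 3777823, held 14 summits in and around Mnt, a Max-binding repressor, and Tlk. Counting summits inside gene bounds, kirre held the most of any X gene, 13 in its 394149 bp. It was followed by CG1677 and the overlapping lncRNA:CR44357 with 10 each, lncRNA:CR44999 with 9, and Mnt, Raf and Tlk with 8 each. Mnt, at 29872 bp, is far shorter than kirre.

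Most X peaks of the optimal set overlapped top peaks of both replicates. The IDR step chose the set from these same replicates, so part of this overlap follows from the choice. Of the 425 X peaks, 366 (86.1%) overlapped a top 2546 peak of replicate 1 by at least 1 bp, 324 (76.2%) one of replicate 3, and 274 (64.5%) one of each. Over all arms 61.6% did so in both and on 2L, 3L and 3R 61.2%, and the difference between X and these 3 did not pass the test (odds ratio 1.15, adjusted p = 0.346, Fisher's exact test). With a reciprocal overlap of 50%, the share in both was 51.1% on X and 50.3% on the 3 arms. With 50% as many top peaks of each replicate, it was 37.9% and 33.7%. Of the 417 X peaks in both whole lists, 194 (46.5%) had the better rank in replicate 3, against 663 of 1639 (40.5%) on the 3 arms. The median log2 ratio of the rank in replicate 3 to that in replicate 1 was 0.08 on X, 0.30 on 2L, 0.22 on 3L and 0.34 on 3R. Across these X peaks, which are not independent replicates, the Spearman correlation of the signals was 0.569, against 0.465 on 2L, 0.532 on 3L and 0.489 on 3R.

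The share of peaks on X differed between the replicates in the weak peaks, where the intervals stood apart. In ranks 1 to 50 it was 14% (95% interval 5.82 to 26.7%) in replicate 1 and 24% (13.1 to 38.2%) in replicate 3. The next 50 ranks had 24% (13.1 to 38.2%) in replicate 1 and 18% (8.58 to 31.4%) in replicate 3, the reverse order. From there to rank 500 the share was 16.75% in replicate 1 and 18.25% in replicate 3. In ranks 501 to 1000 it was 16.8% (13.6 to 20.4%) and 21.8% (18.3 to 25.7%). In each of these bands the intervals overlap. In ranks 1001 to 2546, 16.4% of the peaks of replicate 1 and 16.8% of those of replicate 3 were on X. In ranks 2547 to 10000 the share was 11.95% (95% interval 11.2 to 12.7%) in replicate 1 and 18.2% (17.3 to 19.1%) in replicate 3. In ranks 20001 to 30000 it was 13.2% in replicate 1 and 19.7% in replicate 3. Over the whole lists of 30000, X held 3898 peaks of replicate 1 and 5702 of replicate 3, beside 4727 in the list of both replicates together. X is 17.6% of the length of the 6 arms and holds 15.75% of their protein-coding genes. Read depth cannot be had from these lists, and its part in this was not tested.

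**Figure D4:**
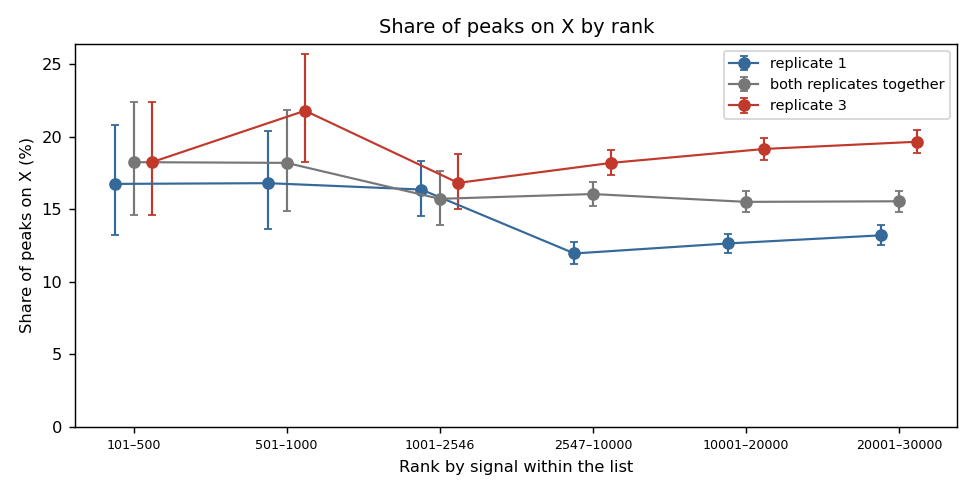
Points give the percent of peaks on X in bands of rank by signal, for replicate 1, replicate 3 and both replicates together, with exact 95% intervals. From rank 2547 on, replicate 1 lies lowest (11.95% in the first such band) and replicate 3 highest (18.2%).

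Of the top 2546 peaks of replicate 3, 463 were on X, and 56 of these (12.1%, 95% interval 9.27 to 15.4%) overlapped no peak at all in the list of replicate 1. On 2L, 3L and 3R the same held for 120 of 1608 (7.46%), and over all arms for 9.23%. The whole list of replicate 1 offered fewer peaks to overlap on X, with 165.6 per Mb, against 250.7 on 2L, 244.3 on 3L and 232.5 on 3R. The part of this in the higher share on X was not tested. The reverse, a top peak of replicate 1 with no overlapping peak in replicate 3, was rare, with 2 of 423 on X (0.473%). It held for 44 of 1653 (2.66%) on 2L, 3L and 3R, and for 2.2% over all arms. The 2 on X were in introns of CG3777 (rank 1973) and dlg1 (rank 2008), a scaffold of cell polarity. The strongest of the 56 was at Nup153 (chrX:16599812-16600181), a nuclear pore gene, with rank 257 and a signal of 83.0 in replicate 3. It was followed by CG4199 (rank 561) and lawc (rank 639). Of the 56, 7 were nonetheless in the optimal set, these 3 among them, with optimal ranks 653, 1069 and 2452.

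The 56 X peaks seen in replicate 3 alone had a higher mean GC content than those with a partner, as did such peaks on the other arms. The sequence from 100 bases to the left to 100 bases to the right of their summits had a mean GC content of 46.7% ± 7.31 (SD over 56 peaks), against 38.2% ± 6.88 for the 407 X peaks of replicate 3 with a partner. On 2L, 3L and 3R the means were 45.2% ± 7.94 without a partner and 38.4% ± 7.28 with one. A CA repeat (CACACACA, either strand) occurred in 22 of the 56 (39.3%, 95% interval 26.5 to 53.3%), against 28 of the 407 (6.88%) with a partner. On 2L, 3L and 3R it occurred in 12 of the 120 peaks without a partner (10%, 95% interval 5.28 to 16.8%) and in 96 of the 1488 with one (6.45%). The GAGA element occurred in 28 of the 56 X peaks (50%) and in 142 of the 407 (34.9%), and on the 3 arms in 46.7% and 33.7%. In all windows of that size that tile the arms, the CA repeat occurred in 5.77% on X and 3.79% on the 3 arms. These motif counts by replicate were made after the sequences had been seen and carry no test.

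Over the X peaks found in both lists, base composition varied less with the replicates than in those 56. The 24 X peaks whose rank was over 4 times better in replicate 3 had a mean GC content of 39.6% ± 9.51 (SD), and the 24 with a rank over 4 times better in replicate 1 had 34.7% ± 5.80, beside 37.4% ± 6.28 for all X summits. On 2L, 3L and 3R the same means lay farther apart, at 43.2% ± 8.78 (92 peaks) and 36.0% ± 5.25 (145 peaks). The summit in sd, which encodes the TEAD partner of Yorkie, ranked 813 in replicate 3, with a signal of 49.9, and 27178 in replicate 1, with a signal of 9.79. Its window had a GC content of 53.2%. The 5′ UTR peak of lawc ranked 237 and 6524, Mur2B 1333 and 20155, Tlk 526 and 7350, and CG43658 480 and 5872, in replicates 3 and 1 in that order. The windows of lawc, Mur2B and Tlk had a GC content of 57.2%, 51.2% and 48.8%, and that of CG43658 had 23.9%. In the other direction, lncRNA:CR44517 ranked 1467 in replicate 1 and 22802 in replicate 3, and its window also had 48.8%. The peaks at lncRNA:CR43298, CHES-1-like, a forkhead gene, IP3K2, an inositol trisphosphate kinase gene, and CrebB, the Drosophila CREB, had ranks 1267, 1215, 1579 and 1173 in replicate 1 and 11300, 10569, 12013 and 8667 in replicate 3. At the edge of the optimal set, the last X peaks inside had signals of 61.4 (rank 2530 and rank 2536) and 61.3 (rank 2539), and the first outside had 61.0, 60.9 and 60.8 (ranks 2553, 2564 and 2569).

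**Figure D5:**
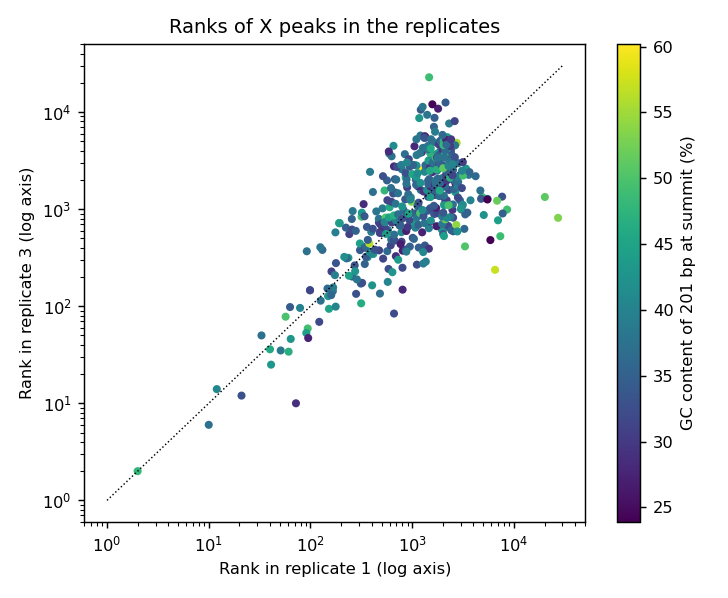
Each point is 1 of the 417 X peaks found in both whole lists, by rank in replicate 1 and in replicate 3 (log axes), coloured by the GC content within 100 bases of the summit, with equal ranks on the dotted line. Ranks reach down to 27178 in replicate 1, for sd, and to 22802 in replicate 3, for lncRNA:CR44517.

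Base composition and motifs at X summits were close to those of the other arms. The mean GC content was 37.4% ± 6.28 (SD over 425 windows of the same size), against 36.7% ± 6.35 on 2L, 3L and 3R and 42.5% over all X windows of that size. None of the 11 motifs differed in share between X and the 3 arms by Fisher's exact test, with 0 past an adjusted p of 0.05, 0 past the unadjusted one, and a lowest p of 0.228 for the DNA replication-related element (TATCGATA). With the top peaks of replicate 3 alone, the CA repeat occurred at 10.8% of X summits and 6.72% of the others (p = 0.00521, adjusted p = 0.0573, Fisher's exact test). With 50 bases to either side, the GAGA element (9.88% on X and 14.1% on the others, p = 0.0201) and the DNA replication-related element (0.235% and 1.81%, p = 0.0122) fell under 0.05 unadjusted, both with adjusted p = 0.111 by Fisher's exact test. The GAGA element occurred at 27.3% of X summits and 28.1% of the others, in 21.5% of all X windows and 21.4% of all windows of the 3 arms. Windows of the same size placed 1100 bp to the left of the X summits held it in 27.8%, no less than at the summits. The GA repeat occurred in 2.35% of those shifted windows. The GA repeat, which resembles the core of the entry sites of the male-specific lethal complex, occurred at 13 X summits (3.06%) and 3.14% of the others, in 1.535% and 1.05% of all windows. In the top peaks of replicate 3 alone these shares of summits were 7.56% and 5.91%. The homeodomain core was present at 13.65% and 14.98% of summits and the GATA site at 10.35% and 11.7%. The CA repeat, the E-box (CACGTG), the M1BP core (GGTCACAC), the nuclear receptor half-site, the AP-1 site (TGANTCA) and the Mef2 site were each found at 0.706 to 5.41% of X summits.

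A smaller share of protein-coding genes had a peak at a start on X than on 2L, 3L or 3R, which was not tested. A summit lay within 500 bp of a start of 175 of 2196 X genes, 7.97% (95% interval 6.87 to 9.18%), against 977 of 8817 (11.1%, 95% interval 10.4 to 11.7%) on 2L, 3L and 3R, where the single arms had 10.7%, 11.2% and 11.3%. Over all arms the share was 10.4% of 13945 genes, with the lowest on the small chromosome 4, where 4 of 80 genes (5%) had one. The lists below are described against the 7.97% of X genes, with no test.

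Among genes of dosage compensation and sex determination, too few held a peak to set their share against that of all X genes. Of 10 such genes, 1 (10%, exact interval 0.253 to 44.5%) had a summit within 500 bp of a start. It was Sxl, the switch gene of sex determination, with a signal of 68.9 and rank 2086. The Sxl summit lay 486 bp from the start, near the edge of the window. Its peak ranked 5056 in replicate 1, outside the top 2546, and 870 in replicate 3. The genes lncRNA:roX1 and lncRNA:roX2, whose RNAs belong to the male-specific lethal complex, and mof, its histone acetyltransferase, had none. In the list of both replicates together, the best peaks at the starts of lncRNA:roX1 and lncRNA:roX2 had ranks 12442 and 10428, far below the 2546 kept.

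Of 18 chromatin regulators 3 had a peak at a start, ph-p (rank 8), Top1, a topoisomerase (rank 1162), and HP1b, a heterochromatin protein (rank 1871). ph-d, the neighbouring copy of ph-p, had no optimal summit within 500 bp of a start. An optimal peak lay 743 bp upstream of it (rank 1579), and the best peak at its start in the list of both replicates together ranked 2777. The copies are alike in sequence, and whether reads of one were placed on the other was not tested. Of 10 genes of ecdysone and metamorphosis only br, the Broad-Complex, had a peak at a start (rank 2085). This br peak ranked 4874 in replicate 1 and 1334 in replicate 3. The peak named above for Mur2B also lay within the bounds of br. Of 15 genes of actin, adhesion and protein phosphatase 1, the processes of the Phactr family, 4 had a peak at a start. They were Vinc (rank 541), Moe, the Drosophila moesin (rank 1007), sqh, the regulatory light chain of myosin (rank 1392), and Fim, a fimbrin (rank 1782). The sqh peak was in replicate 3 (rank 1184) but not in the list of replicate 1, and that of Fim ranked 1636 in replicate 1 and 7040 in replicate 3. Act5C and flw, which encode an actin and a catalytic subunit of protein phosphatase 1, had none in the optimal set. Replicate 3 alone had top peaks 17 and 47 bp from starts of Act5C (ranks 1607 and 2221), and in the list of both replicates together the best peak there ranked 3919, and that of flw 8503.

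Of 18 signalling genes 2 had a peak at a start, sgg, the Drosophila GSK3 (rank 135), and sd (rank 1977), and 6 held a summit within their bounds, as did 9.38% of the 2196 protein-coding genes of X. Of 17 patterning transcription factors only sd had a peak at a start, and 4 held a summit within their bounds. Of 15 neuronal genes 4 had one, elav, an RNA-binding protein of neurons (rank 321), dnc, a cAMP phosphodiesterase (rank 546), Hk, a subunit of potassium channels (rank 1727), and Fas2, an adhesion molecule (rank 2121). Of 14 ribosomal protein genes 4 had one, RpS28b (rank 731), RpS10b (rank 1542), RpS14b (rank 1771) and RpS5a (rank 2140), with summits 37, 3, 28 and 128 bp from the start. RpS14b has a near-identical neighbour, RpS14a. Of 12 genes of oxidative phosphorylation 3 had one, ND-ASHI (rank 379), ND-24 (rank 1447) and COX6B (rank 2240), which shares its peak with CG33932. With 10 to 18 genes a list, the exact 95% intervals were wide, such as 7.79 to 55.1% for the 4 of 15. A summit within gene bounds was also held by 5 of the 18 chromatin, 6 of the 15 actin and 5 of the 15 neuronal genes. The counts were 2 of 10 for ecdysone, 1 of 10 for dosage compensation, 1 of 14 for ribosomal proteins and 1 of 12 for oxidative phosphorylation. Counts within bounds take no account of gene length, such as the 48405 bp of Raf.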

How the data were processed

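Peaks of chromatin immunoprecipitation with an antibody against GFP were taken from the authors' deposited lists in build dm6, as the labels name it. Each replicate and both replicates together had a list of 30000 peaks made as input for IDR, and the optimal set held 2546. The peak signal and the −log10 q value are the authors' values as deposited, and the q value was used in no test. Which aligner and peak caller were used is not given in the sources used here. Peak lists do not give the read depth of a library. Chromatin was sheared to 200 to 800 bp, per the labels, which limits how closely a summit marks a site. All sample columns were used (0 left out).

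Summits were placed on the Ensembl annotation (release 115) and the RefSeq genome of Release 6 with Python 3.11.15, pandas 2.3.3, numpy 2.4.6, scipy 1.17.1 and matplotlib 3.10.9. Where classes overlapped, coding exon came first, then 5′ UTR, 3′ UTR, non-coding exon, intron and intergenic. Overlap meant at least 1 bp. Shares on X and on 2L, 3L and 3R were compared by a two-sided Fisher's exact test, and p-values were adjusted (Benjamini-Hochberg) over 6 shares and separately over 11 motifs, at a threshold of 0.05. The exact 95% intervals (Clopper-Pearson) include counting error alone. The scripts were tested on simulated data. Alternatives were other windows, only the stronger peaks, 3R alone and each replicate's top list.

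The set of peaks, the gene lists, the motifs and the tests were chosen with earlier results of these data known. Named genes are those of the 20 strongest X peaks, up to 4 list members with the strongest peaks, the 3 strongest peaks of each replicate with no partner, up to 5 of the fullest bin, summits in coding exons if at most 5, the 3 farthest from a start, and the 5 with the largest rank difference in each direction. Any others were named after their values had been seen, which is stated above for only some of them. One of the peaks this rule names is not reported here.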

Additional observations from a re-analysis of the deposited data

How the results depend on the processing

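The higher intronic share and the lower intergenic share of summits on X kept their direction under all alternatives run. Both stayed past the threshold, with odds ratios of 1.73 to 2.76 and of 0.272 to 0.426. These are shares of summits, and no alternative scaled them to bases. Per Mb of intron, X with 25.8 summits stood below 2L with 26.8. The promoter share was less firm, with odds ratios of 0.667 and 0.863 when replicate 3 or replicate 1 was left out, the latter with adjusted p = 0.283 (Fisher's exact test), and 0.795 with a 1000 bp window, adjusted p = 0.0725. The cause was not tested. Narrower windows gave 0.532 (250 bp) and 0.432 (100 bp). Of 11 motifs, 0 passed the adjusted threshold under any alternative, and the lowest adjusted p was 0.0573 (CA repeat, without replicate 1, Fisher's exact test). The mean GC content at X summits was 34.5% within 50 bases of the summit, and 36.8 to 39.3% when a replicate was left out. The count of X genes with a peak at a start was 114 with a 250 bp window and 95 with the stronger 50% of peaks, both of which take fewer summits, against 175. Comparisons with 3R alone, and those restricted to summits farther than 500 bp from a start, were added after the data had been seen.

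No paired analysis was possible because there is only 1 group. Peak lists give no read depth, so the absence of a peak is no evidence that the protein is absent, and without the control library the signal on the male single-copy X cannot be set against its own background. Leaving out a replicate means using the other replicate's top peaks, which are then a list of 1 sample.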
